A study of Mus musculus with 3 samples.

Results

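Accessible sites that lie deep inside genes were examined in MEL cells, a mouse erythroleukemia line that stands for early red cell precursors. They are the DNase-seq peaks of biological replicate 2 that overlapped a peak of biological replicate 1 by at least 1 bp on chromosomes 1 to 19 and were centred in intron 2 or a later intron of the longest protein-coding transcript of a gene. A peak was left out if its centre was in the first intron of the longest protein-coding transcript of any gene. It was also left out if its centre was in an exon of any transcript, within 2500 bp of a transcript start, or within 500 bp of the 3' end of a protein-coding gene. The rule used position and overlap, not the score or the sequence of a peak. It kept 17207 of 81102 shared autosomal peaks, or 21.2% (Wilson 95% interval 20.9 to 21.5%). The study mapped MEL cells, with no treatment or genotype named in the labels, in 3 libraries of 2 biological replicates, with no other condition. MEL is an immortalized line whose sex was not recorded, and the 2 libraries of replicate 1 were merged before peaks were called, so each biological replicate gave 1 list. Intervals below cover counting error over peaks only, no test between samples was possible, and the read depth is unknown.

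DNase I cuts DNA where nucleosomes have been displaced, which happens at promoters, enhancers and insulators. Introns after the first are copied into RNA and then removed by splicing, and many known enhancers sit in them, acting on the host gene or on a neighbour. In red cell precursors GATA1 binds GATA motifs, often beside an E-box bound by TAL1, together with KLF1 at CACCC boxes and NF-E2 at an extended AP-1 site. PU.1, an ETS factor of myeloid and lymphoid cells, is highly expressed in MEL cells because a virus is inserted near its gene. CTCF marks insulators and the anchors of chromatin loops.

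The sequences that carry the results are the reference letters of 8 such peaks, each 150 bp wide, on the plus strand of mm10 (GRCm38), with matches to the searched motifs in capitals. The peaks in Bcl9 and 4931406C07Rik had the highest replicate 2 scores, and the capitals mark a PU.1 match in the former and a RUNX match followed by a composite GATA site in the latter. The peaks in Gucy2g, Tmem205 and Pced1b had the highest scores among those with a CTCF match, an NF-E2 match and a CACCC box, the last beside an E-box. The Nprl3 peak, with a GATA and an AP-1 match, lies in a gene whose introns hold the alpha-globin enhancers. The Bcl11a peak, with a CACCC box and a GATA match, was chosen after its values were seen. The peak in 4931428L18Rik had the lowest score and no match.
Bcl9, chr3:97211336-97211485: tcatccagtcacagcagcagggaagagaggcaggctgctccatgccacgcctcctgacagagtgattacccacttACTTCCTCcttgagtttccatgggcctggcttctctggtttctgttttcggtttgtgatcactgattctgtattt
4931406C07Rik, chr9:15289376-15289525: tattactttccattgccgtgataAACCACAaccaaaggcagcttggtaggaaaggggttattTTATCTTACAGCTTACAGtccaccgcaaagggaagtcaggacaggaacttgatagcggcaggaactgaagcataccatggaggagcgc
Gucy2g, chr19:55218596-55218745: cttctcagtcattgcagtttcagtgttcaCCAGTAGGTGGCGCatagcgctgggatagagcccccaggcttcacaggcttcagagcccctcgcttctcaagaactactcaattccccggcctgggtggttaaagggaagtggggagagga
Tmem205, chr9:21924116-21924265: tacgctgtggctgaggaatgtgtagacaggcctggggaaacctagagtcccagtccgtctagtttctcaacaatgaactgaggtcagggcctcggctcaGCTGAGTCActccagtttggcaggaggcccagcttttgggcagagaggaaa
Pced1b, chr15:97343076-97343225: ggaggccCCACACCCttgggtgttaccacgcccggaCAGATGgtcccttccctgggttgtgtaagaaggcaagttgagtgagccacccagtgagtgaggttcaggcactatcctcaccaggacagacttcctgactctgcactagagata
Nprl3, chr11:32251016-32251165: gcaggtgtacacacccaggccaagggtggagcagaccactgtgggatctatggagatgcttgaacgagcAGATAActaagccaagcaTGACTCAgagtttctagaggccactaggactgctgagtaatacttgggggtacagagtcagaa
Bcl11a, chr11:24136256-24136405: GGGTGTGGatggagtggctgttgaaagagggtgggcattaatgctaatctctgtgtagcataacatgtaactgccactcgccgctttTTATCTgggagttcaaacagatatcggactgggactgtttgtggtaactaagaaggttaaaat
4931428L18Rik, chr1:31044516-31044665: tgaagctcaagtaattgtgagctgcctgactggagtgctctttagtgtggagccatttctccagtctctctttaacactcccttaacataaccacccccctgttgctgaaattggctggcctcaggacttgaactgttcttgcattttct

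The motifs were searched on both strands in the 150 bp around each peak centre. They were AGATAA for the erythroid zinc finger factors, CAGATG for E-box proteins, TGACTCA for AP-1, GCTGAGTCA for NF-E2, CCACACCC as the box bound by KLF1, TGTGGTT for RUNX, GAGGAAGT for PU.1 and CCGGAAGT as an ETS site typical of promoters. The others were GCGCATGC for NRF1, ATGCAAAT for OCT, CTAAAAATA for MEF2, CAAAGTCCA for HNF4, ACATTCCA for TEAD and a degenerate CTCF core. The composite GATA site was CTG, then 8 or 9 bases of any kind, then AGATAA. Every NF-E2 match also holds an AP-1 match, and every composite site holds a GATA match. A match is a stretch of letters and not evidence that a factor was bound.

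Peaks in later introns were weaker than those elsewhere. The deposited score, a whole number of at most 150 whose unit is not given in the sources used here, had a median of 27 in replicate 2, with quartiles of 18 and 42 and a range of 3 to 123. The replicate 2 median was 33 for shared peaks in first introns, 30 for intergenic peaks 2.5 to 50 kb from a start, and 48 for promoter peaks within 1000 bp of one. The later-intron median was below that of first introns on 18 of 19 chromosomes and below that of intergenic peaks on 19 of 19. In replicate 1, whose scores are on another level and are compared only within that list, the medians stood in the same order, at 113, 122, 117 and 135 for later introns, first introns, intergenic sequence and promoters. Later introns held 29.1% of the shared peaks with replicate 2 scores of 1 to 14 and 12.2% of those with scores of 72 to 147, while the promoter share went from 4.56% to 46.1%. Across the 17207 peaks the scores of the replicates had a Spearman rho of 0.91, a description over peaks that share their libraries.

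**Figure D1:**
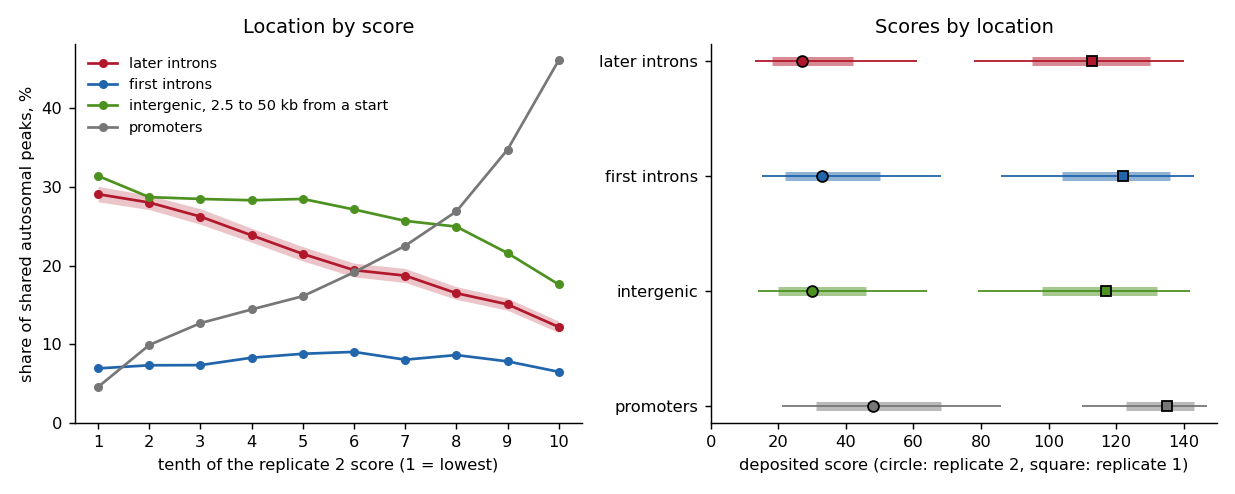
Left, share of shared autosomal peaks in each location (y axis, percent) in 10 classes of rising replicate 2 score (x axis), with the Wilson 95% interval shaded for later introns. Right, deposited score (x axis) by location, with the median (circle for replicate 2, square for replicate 1), the quartiles (thick bar) and the 10th to 90th percentiles (thin line). The later-intron share falls from 29.1% to 12.2% while the promoter share rises from 4.56% to 46.1%.

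Although weaker, later-intron peaks were found in both lists at a share close to that of other distal peaks. Before overlap was asked, 17864 replicate 2 peaks met the position rule, and 96.3% of them (96.0 to 96.6%) overlapped a replicate 1 peak, against 96.2% in first introns and 90.8% at promoters. Of the replicate 2 peaks without overlap, 477 in later introns, 196 in first introns and 1652 at promoters lay within 500 bp of a replicate 1 peak. Only 180, 53 and 20 lay farther away, so the lower promoter share came mostly from peaks with a near neighbour. In the longer replicate 1 list 59552 peaks met the position rule, and 29.1% (28.8 to 29.5%) were overlapped by replicate 2. The peaks seen in replicate 1 alone had a median replicate 1 score of 56, against 112 for those overlapped. At equal replicate 1 scores above 60, a peak in a later intron was overlapped by at least 1 bp more often than one in the other 3 locations. Among replicate 1 scores of 101 to 120 the overlapped share was 71.5% (70.5 to 72.6%) in later introns, 64.5% (63.5 to 65.5%) in intergenic sequence, 55.5% (53.7 to 57.3%) in first introns and 39.6% (38.5 to 40.8%) at promoters. The same order held at 61 to 80, 81 to 100 and 121 to 140, and at scores of 60 or less the intergenic share was the higher one. These shares count a shifted neighbour as no overlap. Among the peaks at 101 to 120 without overlap, 383 in later introns, 802 in intergenic sequence, 265 in first introns and 2196 at promoters lay within 500 bp of a replicate 2 peak. Those farther away numbered 1588, 2505, 1063 and 1935, so near neighbours weighed most at promoters. The width of the hotspots, broader regions of raised cutting that the authors also deposited, differed most at promoters. Replicate 1 hotspots under later-intron peaks had a median width of 615 bp, against 726 bp in first introns, 650 bp in intergenic sequence and 1938 bp at promoters. In replicate 2 the medians were 245 bp in later introns, 249 bp in first introns, 246 bp in intergenic sequence and 388 bp at promoters.

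**Figure D2:**
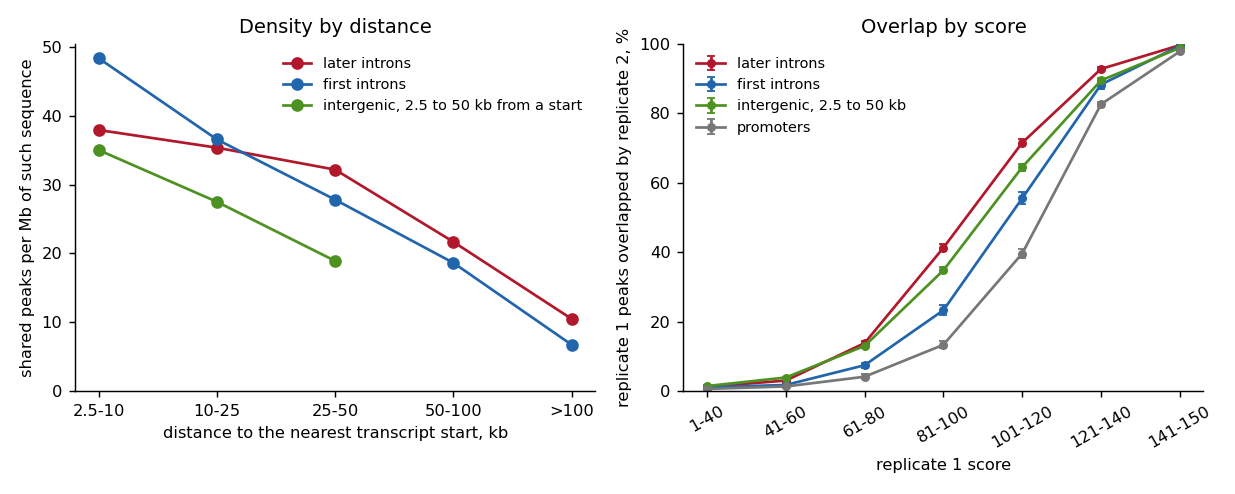
Left, shared peaks per Mb of sequence that meets the position rule (y axis) by distance to the nearest transcript start in kb (x axis). Right, percent of replicate 1 peaks overlapped by a replicate 2 peak (y axis) by replicate 1 score (x axis), with Wilson 95% intervals. Later introns lie below first introns next to starts, at 37.9 against 48.3 peaks per Mb, and above the other locations in overlap at scores of 101 to 120.

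Per length of sequence, later introns were less densely filled than first introns and more densely than intergenic DNA. The position rule admits 572 Mb of later-intron sequence, which held 30.1 shared peaks per Mb, against 36.5 in first introns, 27.1 in intergenic sequence and 324 at promoters. The density was below that of first introns on 18 of 19 chromosomes and above that of intergenic sequence on 15 of 19. The gap to first introns was largest close to starts. Between 2.5 and 10 kb from any start there were 37.9 peaks per Mb in later introns and 48.3 in first introns. Between 25 and 50 kb the order was the other way round, with 32.2 peaks per Mb in later introns, 27.8 in first introns and 18.9 in intergenic sequence. Beyond 100 kb later introns still held 10.5 peaks per Mb and first introns 6.72.

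Within genes, the number of the intron made little difference to density. Intron 2 held 3509 of the peaks (20.4%) at 30.9 per Mb, and introns 11 and later held 4251 (24.7%) at 28.9 per Mb. The median replicate 2 score went from 30 in intron 2 to 25 in introns 11 and later. Intron length mattered more. Introns of up to 2 kb, 2 to 5 kb and 5 to 10 kb had 36.8, 37.9 and 37.0 peaks per Mb, and those over 100 kb had 13.2. Along introns of 10 kb or more, peaks were spread almost evenly, at 23.0 to 26.0 per Mb in each of 10 equal stretches from the 5' to the 3' end. The median peak lay 19164 bp from the nearest start, 51700 bp from the start of its host's longest transcript and 1843 bp from the nearest exon, and 1644 peaks (9.55%) were centred within 200 bp of an exon. For 71.2% of the peaks the nearest protein-coding start was that of the host gene.

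The sequence of later-intron peaks differed from its surroundings. Their median GC content was 48%, against 45.3% in 30477 flanks, which are windows of the same width centred 1000 bp to either side that overlap no peak of either list. Repeats, marked by lower case in the reference, covered 16.7% of the bases on average in peaks, 24.7% in flanks and 28.4% of all later-intron sequence that the rule admits. A later-intron peak held 1.85 CpG dinucleotides on average, compared with 9.37 at promoters.

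The PU.1 motif stood out most among the short words. It was present in 2129 later-intron peaks (12.4%, 11.9 to 12.9%) against 0.548% of their flanks, for a ratio of 22.6 (19.3 to 26.4), and was above the flanks on 19 of 19 chromosomes. Of all shared peaks 10.3% held it. Among the 8531 words of 8 bases found in at least 100 later-intron peaks on either strand, GAGGAAGT had the highest ratio of peaks to flanks, in a ranking added after the listed motifs were counted. The match in Bcl9 printed above is of this kind, on the opposite strand. The share was almost level across replicate 2 scores, from 11.9% at scores of 3 to 21 to 13.9% at 52 to 123. It was near that of first introns (12.9%) and intergenic peaks (11.8%) and above that of promoters (3.93%). PU.1 matches gathered at the peak centre, with 10.8 matches per 1000 peaks per 10 bp within 50 bp of it and 0.734 at 350 to 500 bp. With replicate 1 peaks alone the ratio was 15.3.

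**Figure D3:**
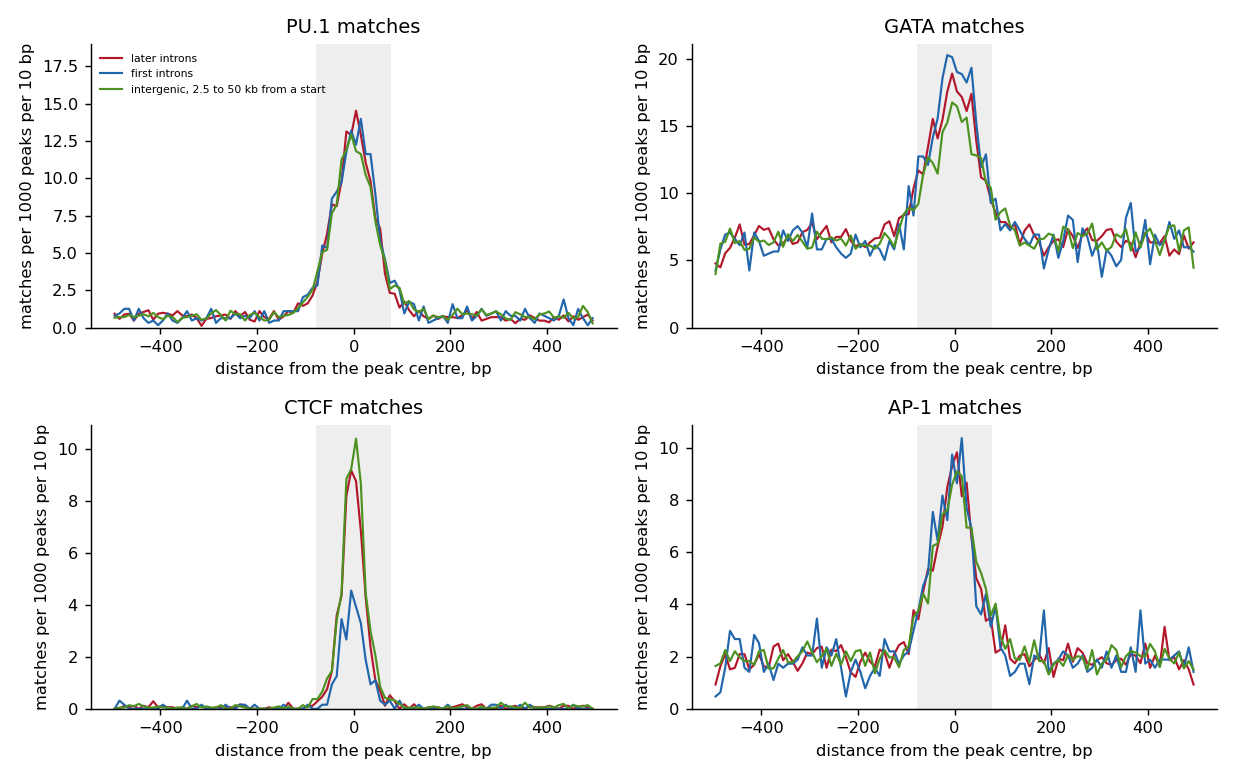
Matches per 1000 peaks per 10 bp (y axis) by distance from the peak centre in bp (x axis) for the PU.1, GATA, CTCF and AP-1 motifs in later-intron, first-intron and intergenic peaks. The grey band is the 150 bp window. All 4 motifs gather at the centre, PU.1 at up to 14.5 in later introns, and the CTCF curve of first introns reaches 4.55 where that of later introns reaches 9.18.

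GATA matches were the most frequent of the factor motifs and rose with the score. They were present in 3397 peaks (19.7%, 19.2 to 20.3%) against 8.26% of flanks, for a ratio of 2.39 (2.28 to 2.51), with 15.9% for all shared peaks. The share was 15.3% (14.4 to 16.2%) at replicate 2 scores of 3 to 21 and 28.8% (27.1 to 30.5%) at 52 to 123. Peaks with a GATA match had a median replicate 2 score of 32, against 26 without, and a median replicate 1 score of 120 against 111. GATA was somewhat less frequent than in first introns (21.3%), with later introns lower on 14 of 19 chromosomes, and more frequent than in intergenic peaks (17.8%), with later introns higher on 14 of 19. At promoters 994 of 16569 peaks held one. A second GATA match did not go with a further step in score, the median being 31.5 in the 302 peaks with 2 matches.

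The composite site recognised by GATA1 with TAL1 showed its known spacing. It was present in 364 later-intron peaks (2.12%, 1.91 to 2.34%) against 0.285% of flanks, for a ratio of 7.41 (5.87 to 9.36), and in 1.64% of all shared peaks. Around the 3721 GATA matches of later-intron peaks, CTG stood 8 bases upstream of AGATAA 254 times, 7 bases upstream 151 times and 9 bases upstream 115 times. At the spacings from 0 to 20 bases other than 8 and 9, the median count was 87. In flanks the counts at 8, 7 and 9 bases were 46, 67 and 42, with a median of 44 at the spacings other than 8 and 9, so the excess at 8 bases was seen in the peaks and not in their flanks. Neither the spacing nor the share was particular to later introns. Per 1000 GATA matches the count at 8 bases was 68.3 in later introns and 73.4 in first introns. It was 68.2 in intergenic and 57.4 in promoter peaks. The composite site was present in 2.59% of first-intron peaks, for a ratio of later to first of 0.82 (0.68 to 0.98). The intergenic share was 1.87%. The later-intron share rose from 1.11% (0.876 to 1.41%) at replicate 2 scores of 3 to 21 to 3.98% (3.31 to 4.77%) at 52 to 123.

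**Figure D4:**
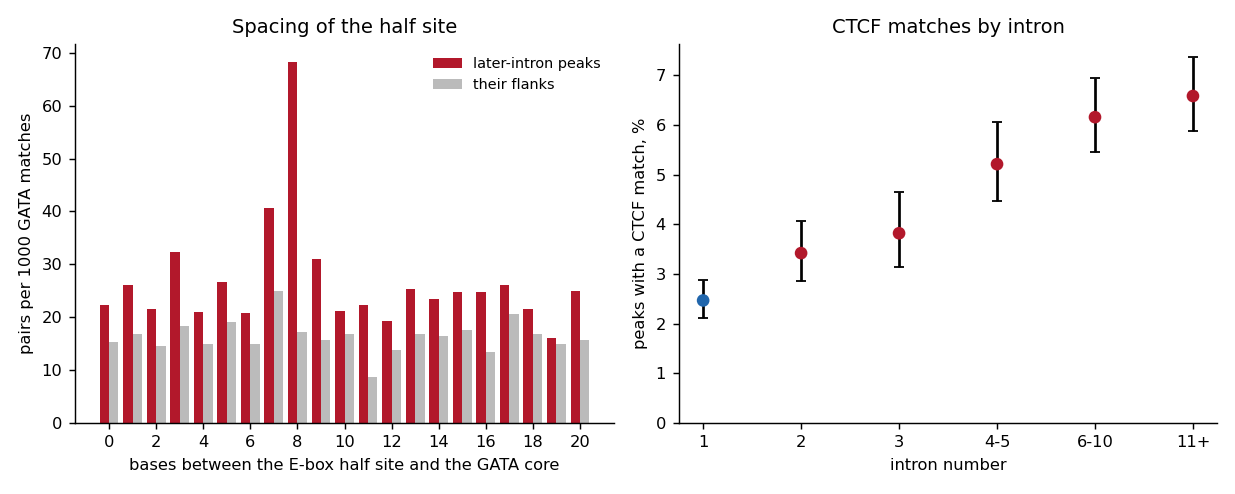
Left, number of CTG elements per 1000 GATA matches (y axis) by the number of bases between CTG and AGATAA (x axis) in later-intron peaks and their flanks; the bar at 8 bases stands at 68.3 in peaks and 17.1 in flanks. Right, percent of peaks with a CTCF match (y axis) by intron number (x axis) with Wilson 95% intervals, first introns in blue, rising from 2.47% in intron 1 to 6.59% in introns 11 and later.

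CTCF matches separated later introns from first introns. They were present in 895 later-intron peaks (5.20%, 4.88 to 5.54%) and in 3 of the 30477 flanks. First-intron peaks held them in 2.47% (2.11 to 2.88%), so the later-intron share was 2.11 times as high (1.78 to 2.49) and higher on 19 of 19 chromosomes. The intergenic share was 5.87% and that of all shared peaks 4.16%. The difference was present at matched distance from starts. At 2.5 to 10 kb the shares were 5.18% in later and 2.31% in first introns, and at 25 to 50 kb they were 5.49% and 2.40%. Beyond 50 kb the intervals of later introns (4.16%, 3.47 to 4.97%) and of the 383 first-intron peaks (3.13%, 1.80 to 5.40%) overlapped. Within later introns the share rose from 3.42% (2.87 to 4.07%) in intron 2 to 6.59% (5.88 to 7.37%) in introns 11 and later, while the GATA share went from 20.7% to 18.4%.

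CTCF matches were rarest at the highest scores, where GATA was most frequent. Later-intron peaks with a CTCF match had a median replicate 2 score of 25, against 27 without. The match was present in 5.44% (4.90 to 6.04%) of later-intron peaks with replicate 2 scores of 3 to 21, in 7.63% (6.91 to 8.42%) of those with 22 to 33, in 4.64% (4.004 to 5.373%) of those with 34 to 51 and in 1.23% (0.881 to 1.71%) of those with 52 to 123. The Gucy2g peak printed above, at 84, was the highest-scoring of them. Relative to the host gene, 417 of the 895 peaks (46.6%, 43.3 to 49.9%) had the match on the coding strand. The CTCF share depended on which peaks were counted, at 3.17% among the higher-scoring 50% of replicate 2 peaks and 2.24% among all replicate 1 peaks at such positions.

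Other blood cell motifs were also more frequent in later-intron peaks than in their flanks. AP-1 matches were present in 8.57% of peaks against 2.37% of flanks, giving a ratio of 3.61 (3.31 to 3.94), and in 7.26% of all shared peaks. The longer NF-E2 site had a ratio of 9.08 (6.81 to 12.1), with 1.64% of later-intron peaks, 0.180% of flanks and 1.28% of all shared peaks. RUNX had a ratio of 2.19 (2.02 to 2.37), with 7.76% of peaks, 3.55% of flanks and 6.62% of all shared peaks. The CACCC box had a ratio of 2.41 (2.10 to 2.77), with 2.75% of peaks, 1.14% of flanks and 2.93% of all shared peaks, and was less frequent than in first introns (3.57%) on 16 of 19 chromosomes. AP-1, NF-E2 and RUNX shares had ratios to first introns of 0.96, 0.97 and 0.92, whose intervals held 1. Pairs of GATA with another motif were set against flanks only, so each ratio includes what the 2 motifs showed singly. Whether they met within a peak more often than their single shares give was not tested. PU.1 was present in 336 of the 3397 peaks with a GATA match and in 2129 of all 17207. GATA with CTCF was present in 46 peaks (0.267%) and 1 flank, a ratio of 81.5 (11.2 to 590.7) that rests on that 1 flank. Within peaks the 2 motifs met seldom. A GATA match was present in 46 of the 895 peaks with a CTCF match, a smaller part than the 3397 of all 17207. GATA with PU.1 was present in 336 peaks (1.95%), 45.8 times the flank share (26.3 to 79.6), GATA with RUNX in 289 at 8.13 times (6.19 to 10.7), GATA with AP-1 in 262 at 7.87 times (5.93 to 10.4), and GATA with the E-box in 414 at 3.08 times (2.63 to 3.61).

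Of the motifs chosen for other tissues and for promoters, TEAD was below the flanks and the ETS site above them. The TEAD motif was present in 0.372% of later-intron peaks but 0.702% of flanks, giving a ratio of 0.53 (0.40 to 0.70), with 0.361% of all shared peaks. OCT (ratio 0.84), MEF2 (0.88), HNF4 (1.07) and NRF1 (1.39) had intervals that held 1, with 0.842%, 0.276%, 0.184% and 0.935% of all shared peaks. These 4 gave no stable direction: with flanks matched on GC the OCT and MEF2 ratios were 1.17 and 1.65, with flanks 500 bp away the HNF4 ratio was 0.77, and with replicate 1 peaks alone the NRF1 ratio was 0.84. The E-box on its own had a ratio of 1.13 (1.08 to 1.19), with 13.3% of later-intron peaks and 11.8% of all shared peaks, and with flanks matched on GC the ratio was 1.046 (0.996 to 1.098), whose interval held 1. The promoter-type ETS site had a ratio of 3.13 (2.00 to 4.89) and was present in only 53 peaks, or 0.308%, against 4.85% at promoters and 1.38% of all shared peaks. None of the 15 motifs was present in 44.3% of later-intron peaks and 73.2% of flanks.

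At the top of the score range were peaks in genes of varied function. The highest replicate 2 score was 123, for the peak in intron 7 of Bcl9, a Wnt pathway coactivator, and for the peak in intron 7 of 4931406C07Rik, with replicate 1 scores of 150 and 148. Next came Vangl1, a planar polarity gene, at 120, Emilin1, a matrix glycoprotein, at 119, and Mthfd1, an enzyme of folate metabolism, at 118. Angpt1, a ligand of the TIE2 receptor, and Pced1b both stood at 116, Alox5ap, needed for leukotriene synthesis, at 115, and Slc44a2 and She at 113. Replicate 1 scores of these 10 peaks ran from 148 to 150. A GATA match was present in 5 of the 10, namely in 4931406C07Rik, Emilin1, Mthfd1, Slc44a2 and She, and a composite site in 4931406C07Rik and Slc44a2. Among all later-intron peaks with replicate 2 scores of 52 to 123, 28.8% held a GATA match and 3.98% a composite site.

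Host genes were a minority of all genes. Of 15445 protein-coding genes with later-intron sequence that the rule admits, 6043 (39.1%, 38.4 to 39.9%) held at least 1 peak. With replicate 1 peaks alone this was 64.6%. A single peak was held by 2619 genes and 10 or more by 248. Those 248 genes held 3609 peaks and had a median of 201.8 kb of admitted sequence. Gm37240, a predicted gene whose model spans 1391 kb, held 65. Zfhx3 held 37, Lrmda 34, Atxn1 31, Thsd4 28 and Smyd3 27, and Babam2, Syne1 and Vps13b held 26 each. Among hosts with at least 20 kb of admitted sequence, the densest were Stn1, a telomere maintenance gene, with 42.6 peaks per 100 kb (11 peaks), Gm44511 with 37.3, Cnnm2 with 30.3, Ttc39a with 30.2 and Vwce with 29.3.

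Long genes with an accessible promoter hosted more peaks than long genes without. Among genes with over 100 kb of admitted sequence, 98.7% (97.3 to 99.4%) of the 477 with a replicate 2 promoter peak were hosts, at 38.3 peaks per Mb, against 66.7% (63.3 to 69.9%) of the 765 without, at 12.2 per Mb. Between 5 and 20 kb the shares were 30.6% and 29.7%, with intervals that overlapped, and the densities were 39.3 and 42.4 per Mb. Between 1 and 5 kb they were 11.7% (10.2 to 13.3%) and 8.90% (7.56 to 10.4%), at 49.54 and 39.98 per Mb, and between 20 and 50 kb 65.6% and 52.5%. Hosts with no promoter peak in either list held 4545 peaks, or 26.4% of the total. A host gene need not be the target of an element inside it.

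Gene lists chosen for this cell type and for others were set beside the 30.2 peaks per Mb of all 15445 genes (a peak in more than 1 host is counted for each). Over all genes 39.1% were hosts and 8849 of the 15445 had a replicate 2 promoter peak. A GATA match was present in 19.7% of all peaks and a PU.1 match in 12.4%. The lists were not matched to all genes on length or promoter peak. Across classes of admitted sequence from 1 kb up, density was 38.3 to 49.5 per Mb in genes with a replicate 2 promoter peak. In genes without one it was 12.2 to 42.4 per Mb. Intervals of list densities are exact Poisson 95% intervals over peaks. They treat the peaks of 1 gene as independent, although Vwf alone held 14 of the 29 megakaryocyte peaks. Wilson 95% intervals of the host shares, which count genes, held 39.1% for erythroid factors (29.0 to 71.0%). They also held it for heme and iron genes (24.6 to 66.3%) and red cell membrane genes (31.7 to 72.7%). Genes of erythroid transcription factors had 9 hosts of 18, 55.4 peaks per Mb (40.2 to 74.3) and a GATA match in 15 of 44 peaks (34.1%, 21.9 to 48.9%). Their median replicate 2 score was 44. Bcl11a, a repressor of fetal globin genes, had its highest replicate 2 score at 101, Ikzf1, a zinc finger factor of blood cells, at 84, Sox6, which acts with Bcl11a, at 82 and Foxo3, which protects red cell precursors from oxidants, at 82. Genes of heme and iron handling had 8 hosts of 18 at 91.0 peaks per Mb (54.8 to 142.1), with a GATA match in 6 of 19 peaks. The highest replicate 2 scores there were 75 in Steap3, an iron reductase of endosomes, 56 in Tfrc, the transferrin receptor, 46 in Fech, the last enzyme of heme synthesis, and 39 in Uros, an earlier enzyme of that pathway. Steap3's peak held a composite site, and those of Fech and Uros a GATA match. Red cell membrane genes had 10 hosts of 19 at 54.3 peaks per Mb (35.1 to 80.1), with a GATA match in 3 of 25 peaks (12%), led by the beta-spectrin gene Sptb (69), the adducin gene Add2 (50), the ankyrin gene Ank1 (42) and Ermap (40).

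Among related blood lineages, stem and progenitor and megakaryocyte genes had density intervals above the value of all genes, lymphoid genes had one that ended just below it, and that of myeloid genes held it. Stem and progenitor genes had 10 hosts of 13 at 53.5 peaks per Mb (42.1 to 67.1), with highest replicate 2 scores of 100 in Runx1, 95 in Meis1, 92 in Erg and 83 in Etv6, all transcription factors of early blood cells. Megakaryocyte genes had 6 of 10 at 70.5 per Mb (47.2 to 101.2), led by Vwf (78), the von Willebrand factor gene, whose promoter had no peak in either list. Selp (65), Itga2b (60) and Rab27b (55) followed. Myeloid genes had 7 of 12 at 53.8 per Mb (29.4 to 90.3), led by the growth factor receptor gene Csf1r (73), the integrin gene Itgam (64) and Csf3r (57). Of their 14 peaks 4 held a PU.1 match, 3 in Itgam, its highest included, and 1 in Csf3r, its only peak. Lymphoid genes had 6 of 19 at 18.9 per Mb (11.2 to 29.9), with Pax5 (72), Lef1 (63), Gata3 (32) and Tcf7 (24) leading.

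Density did not set blood genes apart from every other list. Muscle genes had 9 hosts of 12 at 55.2 peaks per Mb (38.0 to 77.5), with Neb (87), Ryr1 (54), Actn2 (53) and Tnnt2 (52), and 1 of the 12 had a replicate 2 promoter peak. Fibroblast and matrix genes had 7 of 14 at 51.6 per Mb, with Col5a1 (92), Fbn1 (90), Pdgfrb (56) and Col4a1 (36), and 3 of the 14 had a promoter peak. Of the 18 erythroid factor genes 17 had one. Cell cycle and replication genes had 8 of 20 at 55.8 per Mb, led by Cdk6 (97), Trp53 and Rb1 (56 each) and Mcm5 (49). Chromatin regulators had 15 of 20 at 38.5 per Mb, led by Arid1b (87), Tet3 (70), Dnmt3a (52) and Dnmt1 (49). Hepatocyte genes had 4 of 13 at 19.5 per Mb, with Hnf4a (72), Apob (24) and Cps1 (21).

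Neuron genes stood lowest in density, and the low housekeeping value rested on 1 peak, with an interval that held the value of all genes. Neuron genes had 11 hosts of 19, but in 9.10 Mb of admitted sequence, so the density was 5.72 peaks per Mb (4.27 to 7.50). Their median replicate 2 score was 19. Even so, Csmd1 had a peak at 92, Nrxn3 at 71 and Dlg2 at 51. Housekeeping genes had 1 host of 16, Ywhaz, whose peak scored 36, at 7.02 per Mb (0.178 to 39.1), although all 16 had a replicate 2 promoter peak. With replicate 1 peaks alone the housekeeping density was 287.8 per Mb (206.5 to 390.4). Erythroid factors stood at 215.2 (184.1 to 249.9) and heme and iron genes at 244.2 (181.85 to 321.1), with intervals that overlapped that of the housekeeping list. The low place of the housekeeping list was thus not seen without asking for replicate 2.

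Genes whose introns are known to hold elements gave a closer view. Runx1, which has 7 introns, held 17 peaks in introns 2 to 6, the first intron being left out by the rule. The replicate 2 scores in Runx1 ran from 11 to 100 with a median of 51, and 4 of the peaks had a GATA match. Its highest peak lay in intron 2, 110.4 kb from the start of the longest transcript, and a pair at 24.3 and 25.1 kb scored 97 and 90. Bcl11a held 4 peaks, all in intron 2, where an erythroid enhancer is known, at 52.1, 57.5, 58.2 and 61.5 kb from the start with replicate 2 scores of 41, 39, 101 and 57. The highest of these, printed above, held a CACCC box at its edge and a GATA match near its centre, and the peak at 52.1 kb also held a GATA match. The replicate 1 hotspot of the 58.2 kb peak was 3057 bp wide and was shared with the 57.5 kb peak. In replicate 2 the hotspot of the 58.2 kb peak was 635 bp wide.

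In Nprl3, which lies beside the alpha-globin genes, the peaks were in introns 4 and 6, at 16.6 and 21.9 kb from the start, with replicate 2 scores of 51 and 42. Both held a GATA match, and the one in intron 6 held a composite site. Hbs1l, the neighbour of the blood cell regulator Myb, held 5 peaks with replicate 2 scores of 17 to 60, of which 3 had a GATA match. Lmbr1, known for a limb enhancer of a distant gene, held 3 peaks at 22, 25 and 26, none with a GATA match. Gfi1b, an erythroid and megakaryocyte repressor, has 3.77 kb of admitted sequence and held none. Zfpm1 and Cbfa2t3, partners of GATA1 and of TAL1, have no admitted sequence, because their later introns lie inside the 4384 kb first intron of Gm20388, a predicted gene on chromosome 8. Irf8, Abcb10, Acta1 and Tubb3 are covered by the same intron, so peaks in them are not counted here.

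**Figure D5:**
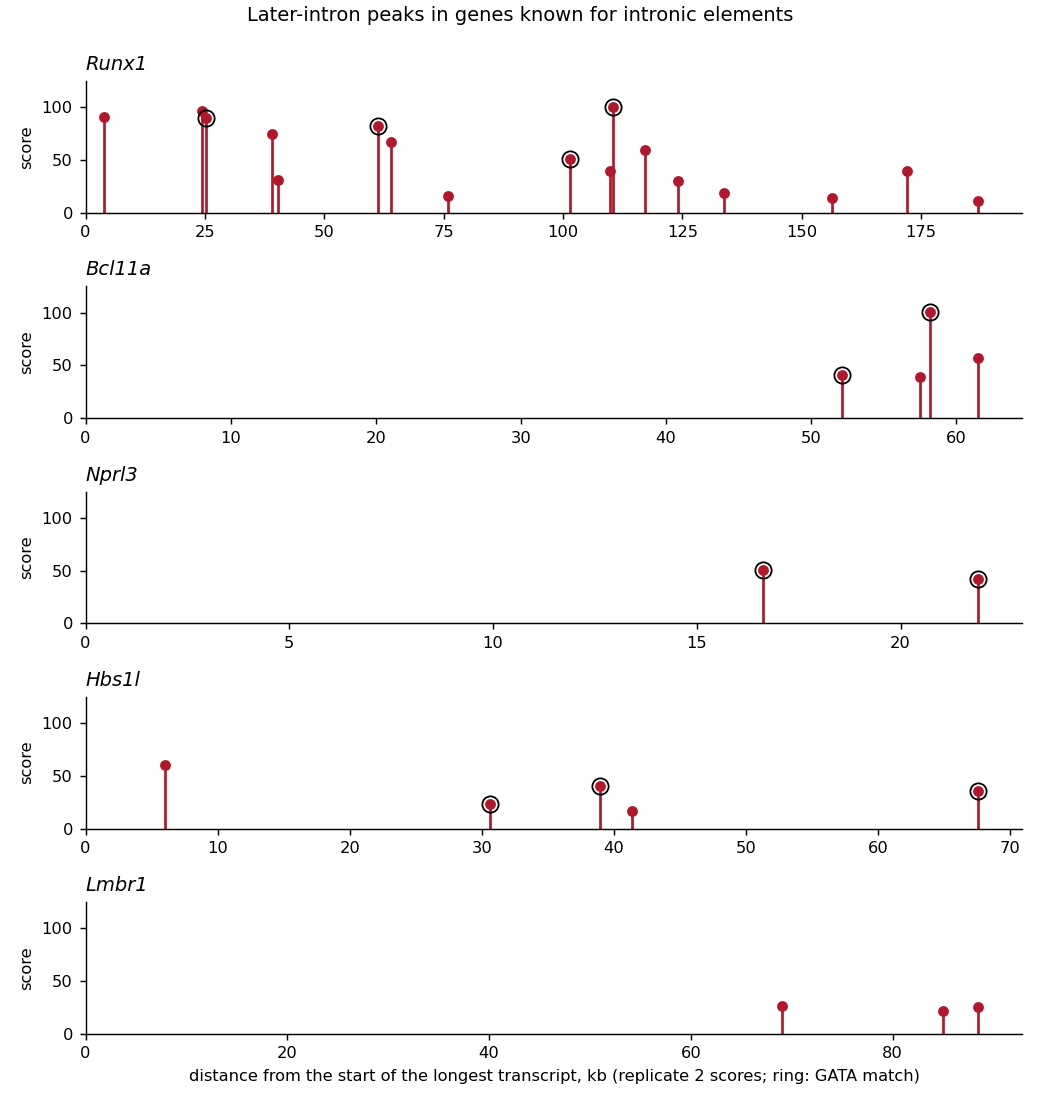
Replicate 2 score (y axis) of each later-intron peak by distance from the start of the host's longest transcript in kb (x axis) in Runx1, Bcl11a, Nprl3, Hbs1l and Lmbr1, with a ring around peaks that hold a GATA match. Scores reach 100 in Runx1 and 101 in Bcl11a and stay at or below 26 in Lmbr1.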

How the data were processed

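Peaks and hotspots deposited by the authors for DNase-seq of 3 MEL libraries were used, on mm10 per the labels. The authors' peak score is given with no unit, and the hotspots have a −log10 q-value, as the deposited file format defines that column, which was not compared. Aligner, caller and read numbers are not given in the sources used here. Exact repeats were dropped (67 and 7 lines), leaving 269399 autosomal peaks in replicate 1 and 85669 in replicate 2. Annotation was GENCODE M21 basic, the longest transcript being that with most exonic bases. A replicate 1 score is the highest among overlapping peaks. Genes were named by rule: hosts of the 10 highest-scoring peaks, hosts with most peaks or the highest density, up to 4 genes per list by highest-scoring peak, and all genes of the list of known intronic elements. A few genes that the rule names are not reported here. The members, lists and motifs were chosen with earlier results of these data known. Alternatives were another overlap, each replicate alone, the transcript with the longest span, a 5000 bp limit, higher scores, other windows and other flanks. Python 3.11.15 (pandas 2.3.3, numpy 2.4.6, scipy 1.17.1; plots in matplotlib 3.10.9) was used, and the code was tested on simulated data.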

Additional observations from a re-analysis of the deposited data

How the results depend on the processing

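With each replicate left out, the number of later-intron peaks ran from 17864 to 59552, their share from 20.9 to 22.1%, their density from 31.2 to 104.1 per Mb, the share of host genes from 39.5 to 64.6%, the ratio of peaks to flanks from 1.74 to 2.36 for GATA, 4.34 to 6.92 for the composite site and 15.3 to 22.2 for PU.1, and the CTCF share from 2.24 to 5.06%. The higher-scoring 50% of peaks gave 6409 peaks, 16.3% of shared peaks, 11.2 per Mb, a median replicate 2 score of 48, 20.8% of genes as hosts, a GATA ratio of 3.11 and a CTCF share of 3.17%. Windows of 75 bp gave ratios of 2.78 for GATA and 28.4 for PU.1 and a CTCF share of 4.21%, and flanks matched on GC a GATA ratio of 3.12. The share of peaks was 22.2% with the longest span, 19.1% with a 5000 bp limit and 21.6% with 50% overlap, and that of hosts 40.7% with the 5000 bp limit. No other main value left its 95% interval, or moved by more than 1.5 times where it has none. Of the values for single motifs, gene lists and distances, 51 moved that far and 134 did not. The cause of these shifts was not tested. With 1 list per replicate, the spread between libraries could not be measured, and replicates were not compared by a test. No paired analysis was possible because the results come from no test. Unknown depth limits what weak scores mean, and a peak found in replicate 1 alone cannot be called absent from replicate 2.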

Other observations

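Among 8-base words ranked by the ratio of later-intron peaks to flanks, a ranking added after the listed motifs were counted, ACTTCCCC stood at rank 5, present in 4.48% of peaks against 0.328% of flanks, which is 13.7 times (11.1 to 16.8) as often. That word was present in 4.76% of first-intron and 4.92% of intergenic peaks. GAGGGCGC, which fits the last 8 bases of the searched CTCF core, was at rank 2, with a ratio of 19.8 (13.5 to 29.1). It was present in 1.82% of later-intron peaks, 1.10% of first-intron peaks and 2.03% of intergenic peaks.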
